A study of Mus musculus with 3 samples.

Results

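Among the cells that a flow sorter had collected as liver macrophages, 357 cell barcodes met a selection for T cells, with T cell receptor RNA and little Kupffer cell RNA. They came from 9842 barcodes that passed the quality limits in 3 droplet single-cell libraries, 1 per mouse. The sort kept live F4/80-high, CD11b-intermediate cells from livers perfused with collagenase, a gate meant for Kupffer cells, the resident macrophages of the liver. All 3 mice were males of 8 weeks, and the labels give no strain, genotype or allele. The first mouse ate chow, the second took the liquid Lieber-DeCarli diet, containing 5% ethanol, for 3 days, and the third took it for 10 days. The control therefore ate solid chow and not an ethanol-free liquid diet, so that ethanol and liquid feeding cannot be told apart. Each diet is 1 mouse and 1 library, so no difference between diets could be tested against the spread between mice. Intervals printed here are exact and cover counting error only.

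A barcode was taken as a T cell when it held at least 1000 UMIs (unique molecular identifiers, each standing for 1 captured RNA molecule) and 300 genes, at most 10% mitochondrial UMIs, and at least 2 UMIs over 4 genes of the T cell receptor complex. Those genes were Cd3d, Cd3e and Cd3g, which encode the signalling chains of the receptor, and Trac, the constant part of its alpha chain. In addition, 5 Kupffer cell genes (Clec4f, Cd5l, C1qa, C1qb and C1qc) had to make up less than 1% of all UMIs. The levels of these 9 genes chose the barcodes and are not results. The chow library gave 123 T cells of 2767 barcodes, the 3-day library 85 of 4061 and the 10-day library 149 of 3014. The labels state a yield of 3000 to 5000 cells per sample. Kupffer cells, used for comparison, were the 6066 barcodes in which the 5 Kupffer genes made up at least 2% of UMIs.

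A T cell recognises its target through a receptor whose variable part is joined in each developing cell from separate V and J gene segments, with a D segment in the beta and delta chains. Most T cells pair an alpha with a beta chain and carry the co-receptor CD4 or CD8, and a smaller lineage pairs gamma with delta. The mouse liver is known for a large population of invariant natural killer T (NKT) cells, whose alpha chain joins the segments Trav11 and Traj18 and which recognise lipids shown by CD1d. NKT cells patrol the liver sinusoids with the chemokine receptor CXCR6, often carry killer cell receptors such as NK1.1 (the product of Klrb1c in some strains), and release IL-4 and interferon gamma within hours.

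The short J segment Traj18 is shown because it carried the clearest receptor signal among the 357 T cells. It lies at chr14:54200777-54200842 on the forward strand of GRCm38 and its 66 bases are a receptor J segment in the GENCODE vM21 annotation. Capitals mark DNA of the conserved J motif phenylalanine, glycine, any residue, glycine, searched on the given strand as the codons TTT, GGN, NNN and GGN.
Traj18: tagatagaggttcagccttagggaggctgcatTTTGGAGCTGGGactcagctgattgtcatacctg
The same letters were found in 39 of 64 annotated Traj transcripts (60.9%), so that the motif marks J segments in general and not Traj18.

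All 34 UMIs that the T cells held on any of the 60 Traj genes of the files were on Traj18. They were spread over 29 barcodes, with 15 UMIs in the chow library, 11 in the 3-day library and 8 in the 10-day library. Trav11, which lies at chr14:53519303-53519859, took 29 of 46 UMIs on Trav genes (63.0%, 95% Clopper-Pearson interval 47.5% to 76.8%). Another 15 Trav genes shared the rest, and none of them held more than 3 UMIs. The annotation also holds the near copies Trav11d and Trav11n, so the split of reads among them is uncertain; Trav11n held 1 UMI. On the beta chain, 13 UMIs fell on V segments, of which Trbv12-2 had 7, Trbv13-2 had 5 and Trbv13-3 had 1. On the gamma chain, Trgv2 took 48 of 53 V segment UMIs.

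A Trav11 or Traj18 UMI was found in 16 T cells of each library. This was 13.0% of T cells on chow (7.62% to 20.3%), 18.8% after 3 days (11.2% to 28.8%) and 10.7% after 10 days (6.26% to 16.9%). The 3 intervals overlapped. Of the 6066 Kupffer cells, 1 held such a UMI. Both segments together were seen in 7 T cells. The library chemistry reads the 3′ end of a transcript, far from the V and J segments, so a barcode without these UMIs is not shown to lack the invariant chain.

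The 48 barcodes with an invariant segment were set beside the other 309 T cells, for genes chosen after values had been seen and without a test. Cd8a was found in 0 of the 48, which allows a share of up to 6.25%, and in 26 of the 309 (8.41%). Trdc, the delta chain constant gene, was likewise found in 0 of the 48 and in 17 of the 309. Barcodes with an invariant segment thus held no UMI of these 2 genes, both of which were also rare among the other T cells. The other CD8 chain gene, Cd8b1, was found in 1 of the 48 and in 28 of the 309. The gamma constant gene Tcrg-C2 was found in 16 of the 48 (33.3%) and in 84 of the 309 (27.2%). Cxcr6 was found in 45 of the 48 (93.8%), against 246 of the 309 (79.6%), and Id2, a transcriptional regulator of innate-like lymphocytes, was in 48 of the 48, against 281 of the 309. Cd4 was in 8 of the 48, against 39 of the 309. Klrb1c stood at nearly the same share in both sets, 39.6% and 39.2%.

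**Figure D1:**
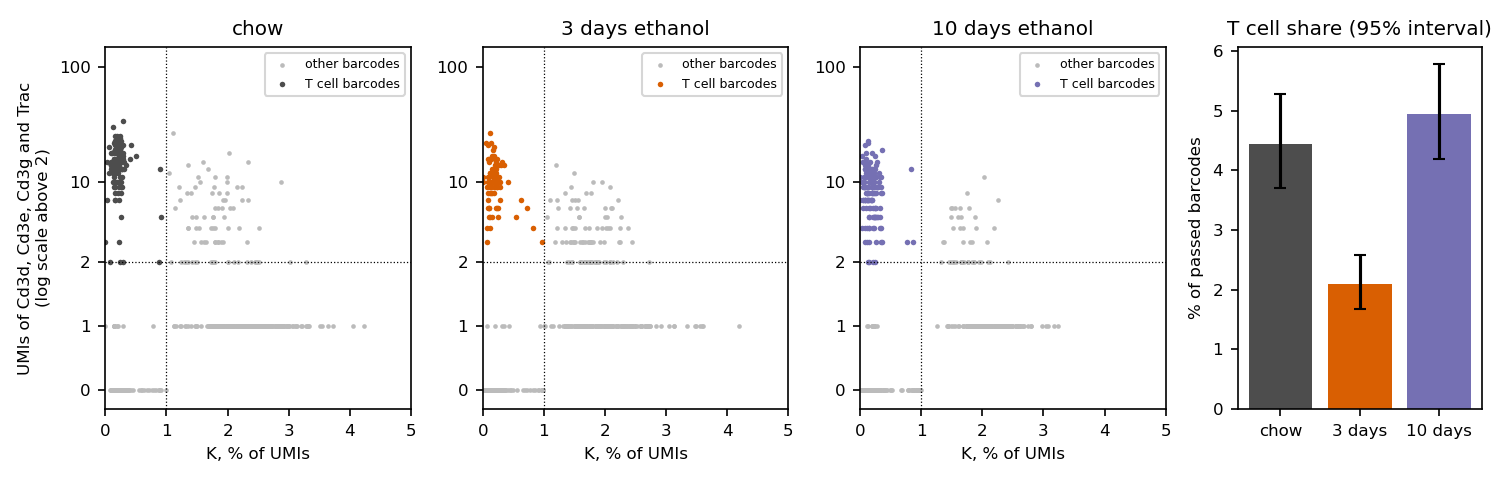
Left, 1 point per passed barcode in the chow, 3-day and 10-day libraries, by the percent of UMIs on the 5 Kupffer genes (K) and the UMIs over Cd3d, Cd3e, Cd3g and Trac (log scale above 2); barcodes with K of 1% or more and no receptor UMI are not drawn. Coloured points are the 123, 85 and 149 T cells. Right, their share of passed barcodes with 95% Clopper-Pearson intervals for counting error only, lowest after 3 days at 2.09%.

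T cells made up 4.45% of passed barcodes on chow (3.71% to 5.28%), 2.09% after 3 days (1.68% to 2.58%) and 4.94% after 10 days (4.20% to 5.78%). The 3-day share was the lowest, and its interval lay below those of the other libraries. Among barcodes under 1% Kupffer UMIs, T cells were 53.5%, 35.3% and 51.4% in the same order. The sort gate sets which T cells were collected at all, so these are shares of sorted barcodes and not of liver cells. The level depended on the mitochondrial limit and on removing barcodes with markers of a second cell type, although the 3-day library stayed lowest in both. With at most 5% mitochondrial UMIs the shares were 9.40%, 4.32% and 22.5%, while 122, 81 and 131 T cells were left, so that mostly other barcodes dropped out. Without barcodes that held 2 or more UMIs of B, plasma, endothelial or dendritic cell markers the shares were 2.02%, 1.26% and 3.45%. From the plasma list, immunoglobulin genes and Jchain were not used. When Ighm, Bst2 and Xbp1 were not counted either, a choice made after seeing the data, the shares were 3.83%, 1.90% and 4.58%.

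The T cells held a median of 3691 UMIs on chow, 2634 after 3 days and 2472 after 10 days, against 4882, 3280 and 3253 in Kupffer cells. Ribosomal protein genes took 31.1%, 32.1% and 33.2% of the T cells' UMIs, and 13.8%, 13.7% and 11.7% of the Kupffer cells'. Near the edges of the selection, 6, 2 and 12 T cells had only 2 or 3 UMIs of the receptor complex genes, and 11, 6 and 10 low-Kupffer barcodes had 1. T cells with at least 0.8% Kupffer UMIs numbered 3, 2 and 2, while 4, 6 and 0 barcodes had at least 2 receptor UMIs and 1% to 1.2% Kupffer UMIs. In all, 86, 96 and 45 passed barcodes had at least 2 receptor UMIs and 1% or more Kupffer UMIs, and these are not counted as T cells here. No T cell barcode sequence was shared by the T cells of different libraries, and 9 were also among the passed barcodes of another library.

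Markers of other cell types were present at unequal levels, and their part in the results below was not tested. The 15 Kupffer markers summed to 3326, 3580 and 3274 CPM in the T cells (UMI counts scaled to 1000000 over all genes), and to between 41041 and 41698 CPM in Kupffer cells. In the chow library, 2 T cell barcodes held 11777 UMIs of the plasma cell genes Igkc, Igha and Jchain, which was 99.5% of such UMIs among the chow T cells. Their totals were 14826 and 15098 UMIs. The 7 plasma cell markers summed to 17187, 51.9 and 69.7 CPM, and Ighg2c was at 0 in all 3 libraries. Another chow barcode held 518 of the 633 hepatocyte marker UMIs. The 10 hepatocyte markers summed to 1097, 382 and 195 CPM. The 8 dendritic cell markers summed to 369, 219 and 144 CPM, and Siglech was at 0 in all 3 libraries. The 8 neutrophil and monocyte markers summed to 997, 1123 and 1050 CPM in T cells, against 421, 386 and 317 CPM in Kupffer cells. Most of this sum was on Ly6c2, Ccr2 and Plac8, while S100a9 was at 0 on chow and after 3 days and Csf3r after 3 and 10 days. The 8 endothelial markers ran the other way to the hepatocyte markers, at 53.7, 119 and 253 CPM in the T cells, against 801, 857 and 998 CPM in Kupffer cells.

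The beta chain constant genes, which the selection did not use, were found in nearly every T cell barcode. Trbc1 or Trbc2 was found in 97.6% of T cells on chow, 95.3% after 3 days and 98.0% after 10 days. After each barcode was thinned to 1000 UMIs, so that depth was equal, the shares were 88.6%, 76.5% and 81.9%. Trbc2 (chr6:41546730-41548352) stood at 1588, 1282 and 1264 CPM in T cells, against 10.6, 8.38 and 9.71 CPM in Kupffer cells. Thy1, a surface glycoprotein of T cells, stood at 477, 567 and 595 CPM, against at most 4.36 CPM in Kupffer cells. Lck, the kinase that starts receptor signalling, stood at 435, 467 and 369 CPM, against at most 4.25 CPM. In each of the 3 libraries the T cell level of these genes lay above the Kupffer cell level.

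Most of the T cells showed neither co-receptor. Neither Cd4 nor Cd8a nor Cd8b1 was found in 73.2% of T cells on chow, 80.0% after 3 days and 78.5% after 10 days. Cd4 alone was found in 13.8%, 12.9% and 12.1%, and in 4.21%, 2.47% and 0.92% of Kupffer cells. At 1000 UMIs per barcode the Cd4 shares were 1.63%, 7.06% and 5.37%, so their order changed with depth. With another random draw of the UMIs they were 4.07%, 7.06% and 6.71%. Cd8a or Cd8b1 alone was found in 13.0%, 7.06% and 8.72%, and 1 T cell, after 10 days, held both co-receptors. At 1000 UMIs neither was found in 88.6%, 87.1% and 87.2%, and Cd8a or Cd8b1 alone in 9.76%, 5.88% and 7.38%. A missing UMI at this depth does not show that the protein was absent.

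Genes of the gamma and delta chains were found beside those of the beta chain. Trdc or a gamma constant gene was present in 47.2%, 50.6% and 42.3% of T cells. Without any Trbc1 or Trbc2 UMI this was the case in 0.813%, 2.35% and 0.671%, and at 1000 UMIs in 1.63%, 7.06% and 5.37%. Tcrg-C2 gave 137, 137 and 156 CPM, and Trdc gave 55.5, 40.8 and 32.5 CPM. Il17a, the cytokine of type 17 gamma delta cells, had no UMI in any library, which allows up to 3 UMIs per library.

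**Figure D2:**
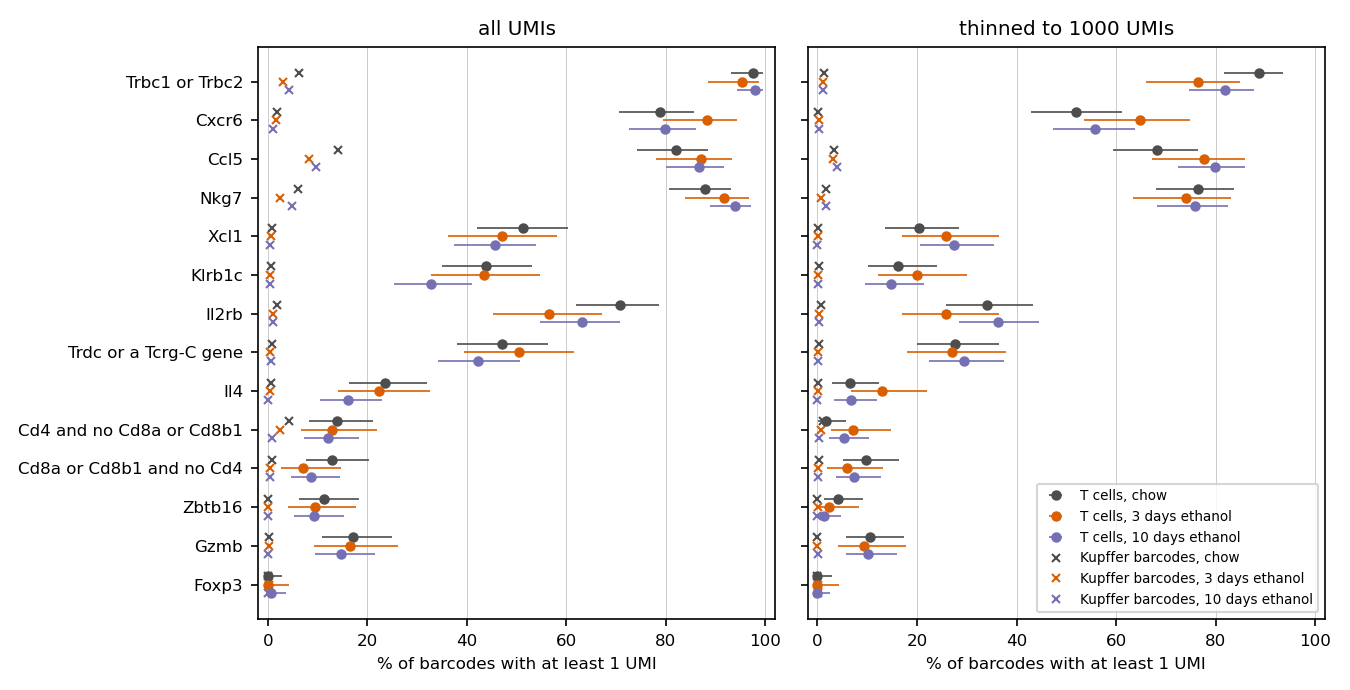
Percent of T cell barcodes with at least 1 UMI of each gene or gene combination in the chow, 3-day and 10-day libraries (circles, with 95% Clopper-Pearson intervals that cover counting error only) and of Kupffer cells (crosses), on all UMIs at the left and at 1000 UMIs per barcode at the right. Cxcr6 was seen in 78.9%, 88.2% and 79.9% of T cells on all UMIs and in 52.0%, 64.7% and 55.7% at 1000 UMIs.

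Of the genes of innate-like and tissue-resident T cells, Cxcr6 was found in most barcodes and Zbtb16 in few. Cxcr6 (chr9:123806475-123811760), the receptor for the sinusoidal chemokine CXCL16, was found in 78.9%, 88.2% and 79.9% of T cells, against 1.93%, 1.66% and 0.985% of Kupffer cells. At 1000 UMIs the T cell shares were 52.0%, 64.7% and 55.7%. Its level was 740, 982 and 741 CPM. Klrb1c was found in 43.9%, 43.5% and 32.9%, and together with Cxcr6 in 40.7%, 41.2% and 28.9%. At 1000 UMIs Klrb1c was found in 16.3%, 20% and 14.8%. Il2rb, the beta chain of the receptor for IL-2 and IL-15, was found in 70.7%, 56.5% and 63.1%, and at 1000 UMIs in 34.1%, 25.9% and 36.2%. Zbtb16, which encodes PLZF, the regulator of NKT development, was found in 11.4%, 9.41% and 9.40%. Its level was low, at 31.2, 29.6 and 39.5 CPM. Id2 stood at 1763, 2157 and 1878 CPM, against 301, 337 and 314 CPM in Kupffer cells.

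The secreted and cytotoxic products were led by Ccl5 and Nkg7. Ccl5 (chr11:83525778-83530518, reverse strand), a chemokine for T cells and monocytes, stood at 3527, 4128 and 4798 CPM, against 48.8, 36.4 and 41.3 CPM in Kupffer cells. It was found in 82.1%, 87.1% and 86.6% of T cells, and at 1000 UMIs in 68.3%, 77.6% and 79.9%. Nkg7, a protein of cytotoxic granules, stood at 1537, 1831 and 1977 CPM. Xcl1, which attracts cross-presenting dendritic cells, stood at 300, 426 and 351 CPM. Il4 stood at 69.3, 100 and 69.7 CPM and was found in 23.6%, 22.4% and 16.1% of T cells. Ltb, lymphotoxin beta, stood at 733, 934 and 876 CPM. Prf1, the pore-forming perforin, had no UMI in the chow and 3-day libraries, and stood at 6.97 CPM after 10 days. Gzmb, granzyme B, was found in 17.1%, 16.5% and 14.8%. Gzma, granzyme A, was found in 3, 4 and 7 barcodes only.

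Members of the naive, regulatory and exhaustion lists differed in how many barcodes carried them. Among naive T cell genes, Satb1, a chromatin organiser, was found in 50.4%, 45.9% and 38.3% of T cells, and Il7r, the receptor for IL-7, in 31.7%, 25.9% and 26.8%. Of the regulatory T list, Tnfrsf18, the co-stimulatory receptor GITR, was found in 48.8%, 47.1% and 29.5%. Ccr7, the receptor that guides naive cells into lymph nodes, stood at 29.5, 25.9 and 4.65 CPM. Foxp3, which defines regulatory T cells, was found in 1 T cell, in the 10-day library. Pdcd1, the inhibitory receptor PD-1, stood at 10.4, 3.71 and 4.65 CPM. Itgae, an integrin chain of epithelial resident T cells, had no UMI after 3 days and at most 2.32 CPM in the other libraries.

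Ighm, the heavy chain gene of IgM, was present in T cells above its level in Kupffer cells. It stood at 177, 145 and 128 CPM in T cells, against 6.55, 4.36 and 3.88 CPM in Kupffer cells. It was found in 61, 27 and 36 T cells, and at 1000 UMIs in 17.9%, 14.1% and 10.1%, against at most 0.862% of Kupffer cells. The defining B cell markers Ms4a1 and Pax5 had no UMI in the T cells of any library. Cd79a was at 0 in the 3-day and 10-day libraries.

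As a check of the label, T cells were set against the Kupffer cells of the same mice by edgeR's quasi-likelihood test on summed counts with the mouse as a block. The selection used this contrast, so the counts only describe it. After the genes of the selection were left out, 1774 of 6073 genes were higher in T cells (29.2%) and 1946 were lower (32%) at an adjusted p of 0.05. Of the listed T cell genes, 14 of 15 tested genes of proximal receptor signalling were higher, and Lcp2, an adaptor that macrophages also use, was lower. All 13 tested genes of the NKT list and 10 of 12 cytotoxic granule genes were higher. Under DESeq2 the counts were 923 higher and 2342 lower.

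NK cells share killer receptors and cytotoxic genes with innate-like T cells, and 21 barcodes of the same libraries (4 on chow, 8 after 3 days, 9 after 10 days) met an NK selection. It asked for less than 1% Kupffer UMIs, 0 UMIs of the receptor complex genes and at least 2 UMIs over Ncr1, Klrb1c, Klre1, Klra4 and Klra8. They had been picked by RNA of the killer receptor family, so that related receptors could differ through the choice, and 10 of them held Trbc2 UMIs. All NK sums together came to 55509 UMIs, against 1277152 in T cells. The genes of both selections were left out. Of 6068 genes, edgeR's quasi-likelihood test with the mouse as a block called 278 higher in T cells (4.58%) and 27 lower (0.445%) at an adjusted p of 0.05. The scaling moved this split. The median log2 difference of all genes was 0.85 with TMM scaling and 0.00 without, where 19 genes were higher and 49 lower. DESeq2 called 88 higher and 15 lower, and a fit to the T and NK sums alone called 30 higher and 36 lower. Without the chow mouse 184 genes were higher, without the 3-day mouse 109 and without the 10-day mouse 110, and 16 to 26 were lower.

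Higher in T cells than in NK cells were Ly6a and Plac8 under every setting run. Ly6a, the surface protein Sca-1 of activated lymphocytes, stood at 456, 530 and 472 CPM in T cells, against 0, 41.0 and 0 CPM in NK cells, which is a single UMI. The groups did not overlap. The log2 difference was 5.69 with an adjusted p of 2.6e-12 by edgeR, and the pooled ratio was 26.5 (4.73 to 1047). Plac8, a lysosomal protein of lymphoid and myeloid cells, averaged 446 ± 72.9 CPM in T cells and 68.3 ± 118 CPM in NK cells (SD, n = 3 mice each), with an adjusted p of 2.2e-07 by edgeR. All of its NK UMIs came from the 3-day mouse, at 205 CPM.

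Helper and co-stimulatory genes stood at or near 0 in the NK cells. Cd40lg, the CD40 ligand by which T cells activate B cells and macrophages, had 177 UMIs in T cells and 0 in NK cells, at least 2.56-fold higher when 3 UMIs are allowed over the NK group. By the same bound Icos, a co-stimulatory receptor, was at least 1.80-fold higher and Tcrg-C2 at least 2.65-fold higher. Lat, the adaptor that relays the receptor signal, had 411 UMIs in T cells and 2 in NK cells. Cd28, the main co-stimulatory receptor, had 260 UMIs in T cells and 2 in NK cells. The edgeR calls of these 5 genes did not hold under DESeq2.

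Lower in T cells were granzyme A and killer receptors. Gzma averaged 312 ± 211 CPM in T cells and 3773 ± 1742 CPM in NK cells (SD, n = 3 mice each), a log2 difference of -2.76 ± 0.24 (SE) with an adjusted p of 6.92e-28 by edgeR. It was found in 14 of 357 T cells and in 8 of 21 NK cells, and the call held under every setting run. Over all 6068 genes, 0.445% were lower in T cells and 4.58% higher. Of 12 tested killer receptor genes, 10 were lower in T cells and 0 higher, Klra7, Klrk1 and Klrd1 among them, while Klra3 and Klrb1f were not called. The NK cells had been picked by RNA of this receptor family and the T cells by receptor complex RNA. Counts of related genes could therefore follow from the choice. Klrb1b, another killer receptor, had 8 UMIs in T cells and 20 in NK cells. Of 11 tested cytokine genes, 4 were lower in T cells (Ccl4, Ccl5, Ifng and Xcl1) and 2 were higher. Of 17 tested T cell surface genes, 6 were higher and 0 lower.

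**Figure D3:**
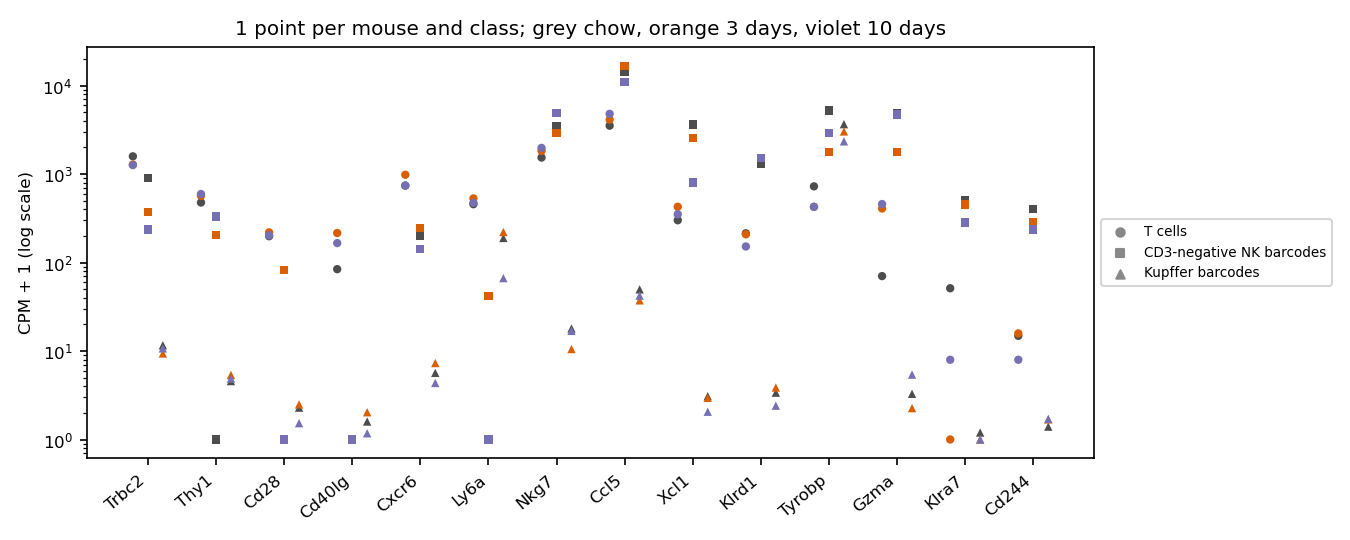
Levels of 14 genes in T cells (circles), NK cells (squares) and Kupffer cells (triangles), 1 point per mouse and class, as CPM with 1 added on a log axis, so that a level of 0 stands at 1. Gzma averaged 312 CPM in T cells and 3773 CPM in NK cells, and Cd40lg stood at 83.2, 215 and 165 CPM in T cells and at 0 in the NK cells of all 3 mice.

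Between diets, 2474 genes with a mean of at least 50 CPM in T cells were compared as ratios with 20 CPM added to each level, and past 2-fold counts as called. With 3 days over chow, 18 genes were higher (0.728%) and 34 lower (1.37%). With 10 days over chow, 12 were higher (0.485%) and 30 lower (1.21%). With 10 days over 3 days, 15 were higher (0.606%) and 33 lower (1.33%). The first and second comparisons share the chow library. The median log2 ratio of all these genes was 0.07, -0.02 and -0.07 in the same order.

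Cd40lg and Fasl were higher in both ethanol libraries, and many barcodes carried them. Cd40lg stood at 83.2, 215 and 165 CPM on chow, after 3 days and after 10 days. Its ratio to chow was 2.58 after 3 days (1.73 to 3.87) and 1.98 after 10 days (1.36 to 2.92). It was found in 30.1%, 43.5% and 32.9% of T cells, and at 1000 UMIs in 12.2%, 23.5% and 18.1%. Fasl, the ligand that starts death by the receptor FAS, stood at 38.1, 122 and 99.9 CPM, with a ratio to chow of 3.21 after 3 days (1.81 to 5.77). It was found in 15.4%, 32.9% and 22.8%, and at 1000 UMIs in 7.32%, 12.9% and 12.1%. No single barcode gave more than 4 UMIs of Cd40lg or more than 3 of Fasl.

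Other differences rested on a few barcodes. Ifng, interferon gamma, stood at 79.7, 296 and 25.6 CPM, but 60 of its 80 UMIs after 3 days were in 1 barcode. Without the top barcode of each library the log2 ratio of 3 days over chow was 0.13, while over all T cells it was 1.67. Ifng was found in 19.5%, 16.5% and 7.38% of T cells and at 1000 UMIs in 4.88%, 10.6% and 1.34%, so that the order of chow and 3 days changed with depth. Gzma stood at 69.3, 408 and 458 CPM in 3, 4 and 7 barcodes, and its top barcode held 31 of 40, 62 of 110 and 81 of 197 UMIs. The ratio of 10 days over chow was 6.60 (4.68 to 9.52).

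Proliferation genes were highest after 3 days. Stmn1, a microtubule regulator of dividing cells, stood at 86.7, 352 and 34.9 CPM, in 8, 10 and 4 barcodes. Hmgb2, a chromatin protein, stood at 492, 1071 and 504 CPM and was found in 65 of 85 T cells after 3 days, against 85 of 123 on chow. Few barcodes held much of these UMIs. The top 5 barcodes of each library held 94%, 89.5% and 100% of the Stmn1 UMIs. For Hmgb2 they held 36.6%, 47.8% and 47.5%, with 59 of 289 UMIs in 1 barcode after 3 days. Of the 16 listed proliferation genes 6 were measured, and 6 of 6 were above 0 in the log2 ratio of 3 days over chow (2 past 2-fold, median 0.38). With 10 days over 3 days, 6 of 6 were below 0 (3 past 2-fold, median -0.93). Over all 2474 genes the median was 0.07 with 3 days over chow, where 0.728% were past 2-fold higher. It was -0.07 with 10 days over 3 days, where 1.33% were past 2-fold lower. T cells with at least 2 UMIs over Mki67, Top2a, Stmn1, Birc5, Rrm2 and Ube2c numbered 4, 8 and 2, or 3.25% (0.893% to 8.12%), 9.41% (4.15% to 17.7%) and 1.34% (0.163% to 4.76%). The same share was 1.88%, 0.972% and 0.985% in Kupffer cells. Depth was not equalised in these shares, and the 3 intervals all overlapped one another.

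Among the genes higher after 10 days than on chow were Dusp2, Nfatc1 and Gpr174. Dusp2, a phosphatase induced by receptor signals, stood at 65.9, 77.8 and 153 CPM, with a ratio of 10 days over chow of 2.33 (1.54 to 3.57). Nfatc1, a transcription factor of receptor signalling, stood at 125 CPM after 10 days, against 57.2 CPM on chow. Gpr174, a G protein-coupled receptor of lymphocytes, stood at 109 CPM after 10 days, against 39.9 CPM on chow. Lower than on chow were Itgb7, an integrin chain for gut homing, at 229, 174 and 107 CPM, and Lef1, a factor of naive T cells, at 101, 66.7 and 51.1 CPM. The ratio of 10 days over chow was 0.467 for Itgb7 (0.326 to 0.658) and 0.509 for Lef1 (0.296 to 0.844).

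Some genes lower in both ethanol libraries than on chow rested on few chow barcodes. Cd209a, a dendritic cell lectin, had 0 UMIs after 3 days, 0 after 10 days and 83 on chow, of which 46 were in 1 barcode. Serpina1e, a hepatocyte protease inhibitor, had 2 UMIs after 3 days, 0 after 10 days and 72 on chow, of which 60 were in 1 barcode. S100a4, a calcium-binding protein of memory T cells, was more widely carried, in 35, 18 and 27 barcodes. It stood at 213, 104 and 146 CPM, with a ratio of 3 days over chow of 0.487 (0.311 to 0.739). Among the clusters described below, S100a4 was highest in one of 14 barcodes, at 672 CPM, and next in one of 18, at 425 CPM. The cluster of 18 was led by Cxcl9 and Cd209a and held 10, 3 and 5 barcodes per library. Its part in this ratio was not tested.

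Most other listed groups had few or no members past 2-fold. Over all 2474 genes the median log2 ratio was 0.07 with 3 days over chow and -0.02 with 10 days over chow. Past 2-fold, 0.728% and 0.485% of them were higher and 1.37% and 1.21% lower. The share of all genes above 0 is not given here, so the counts above 0 have no background beside them. The 3 T cell receptor complex genes Trbc1, Trbc2 and Cd247 were below 0 in the log2 ratios of both ethanol libraries over chow, with medians of -0.23 and -0.29 and none past 2-fold. Of 14 measured T cell surface genes, 13 were above 0 with 3 days over chow (median 0.34) and 9 with 10 days over chow (median 0.13). The 10 measured cytotoxic granule genes had medians of 0.35 and 0.28, with 2 past 2-fold in each. The interferon response list had medians of -0.10 and -0.20. With 3 days over chow, the 7 measured cytokine genes had a median of 0.41 and the 6 measured tissue residency genes a median of 0.39, against 0.21 and 0.18 with 10 days over chow. The heat shock list had 5 of 6 genes above 0 with 3 days over chow (median 0.49) and with 10 days over chow (median 0.13), and Hspa1a had no UMI in any library.

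**Figure D4:**
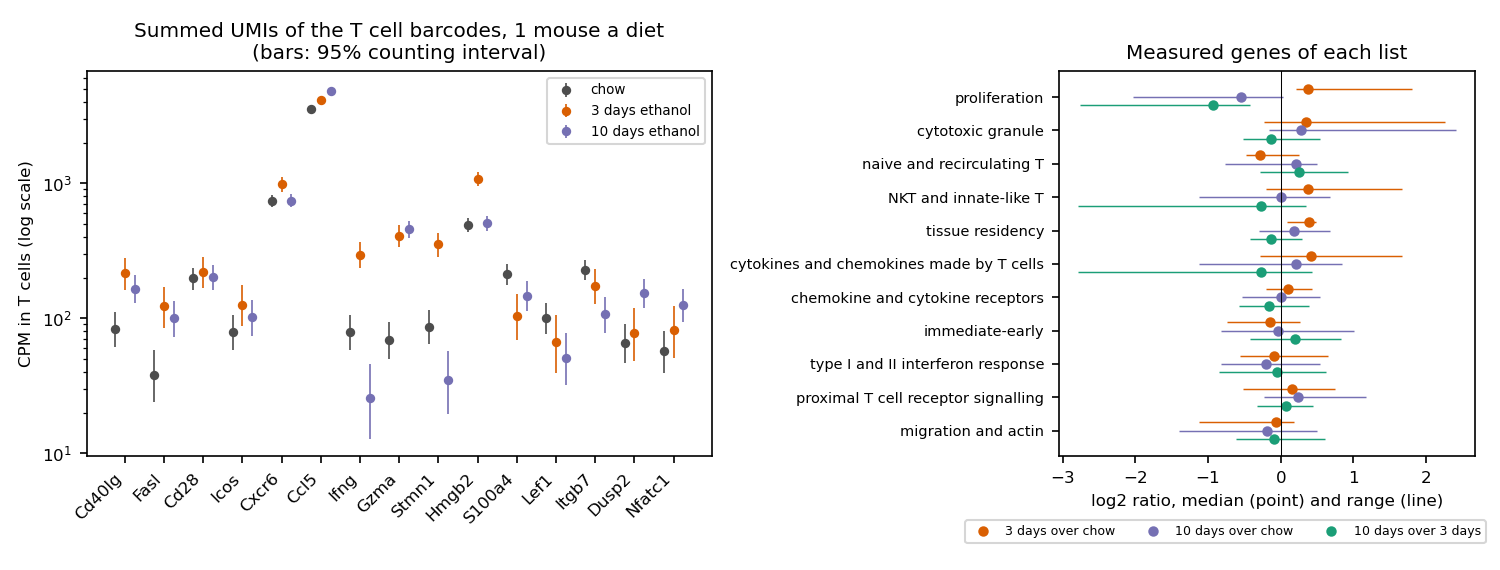
Left, T cell levels of 15 genes in CPM on a log axis in the chow, 3-day and 10-day libraries, with 95% exact Poisson intervals that cover counting error only, from 1 mouse per diet. Right, the median log2 ratio (point) and the range (line) over the measured genes of 11 lists, where the proliferation list had medians of 0.38 with 3 days over chow and -0.93 with 10 days over 3 days.

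Clustering the 357 T cells by their 1000 most variable genes gave 9 clusters, which are described without a test because the same genes formed them. The largest had 100 barcodes (37, 28 and 35 per library), led by killer receptor genes such as Klrc2, Klre1 and Klrk1. Klrb1c was found in 60.0% of it. Cxcr6 was found in 96.0% of it, but also in 93.8% of a cluster of 48 barcodes and 97.2% of one of 36. By the 3 markers Klrk1, Klrb1c and Klrd1 it was NKT or ILC1-type T-like, although the hepatocyte gene Apoa2 led it. Xcl1, on the same marker list, was not among its leading genes. The level of Xcl1 was 279 CPM in it, against 523 CPM in the cluster of 48 and 91.5 CPM in one of 18. Klre1 and Klrb1c also counted as NK markers. Traj18 was in 9% and Trav11 in 5% of it, against 12.5% and 14.6% of the cluster of 48. The invariant segments thus did not set it apart. A naive T-like cluster of 29 barcodes (15, 5 and 9) had Dapl1 and Ccr7 among its leading genes, with Cxcr6 in 13.8%. Pdia4, Creld2 and Sdf2l1, which are not on the naive list, were also among its leading genes. Pdia4 stood at 689 CPM in it and 61.5 CPM outside, but in 17.2% and 18.3% of barcodes, so few barcodes carried that level. A proliferating-like cluster of 13 barcodes (3, 7 and 3) was led by Hist1h2ap, Stmn1 and Top2a, and its median UMI count was 3.04 times that of its barcodes' libraries. A cluster of 46 barcodes (13, 9 and 24) was led by Cd7 and Cd8b1 but held Cd4 and Cd8a each in 17.4%, and was given no name. In the naive T-like cluster Cd8a was found in 34.5% and Cd8b1 in 51.7%. A cluster of 14 barcodes (5, 5 and 4) was led by Gzma, Ncr1 and Klra7, with Trbc2 in all 14 and Trdc in 42.9%, and was likewise given no name. The other 4 clusters were not named either. One of them, 36 barcodes, had 1 chow barcode, 9 from the 3-day and 26 from the 10-day library. Another, 18 barcodes led by Cxcl9, Cd209a and H2-Eb1, had a median of 8434 UMIs.

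**Figure D5:**
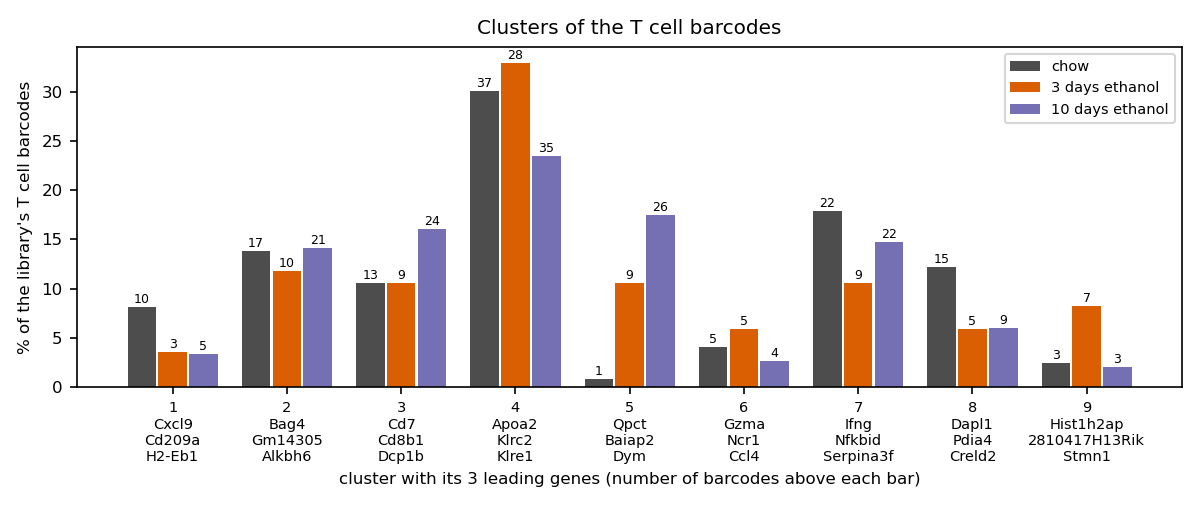
Percent of each library's T cells in the 9 expression clusters, named by number and their 3 leading genes, with the number of barcodes above each bar. Cluster 4, led by Apoa2, Klrc2 and Klre1, held 37, 28 and 35 T cells of the chow, 3-day and 10-day libraries, and cluster 5 held 1, 9 and 26.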

How the data were processed

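The authors deposited raw UMI counts per gene and barcode, 1 matrix of 28692 genes per mouse, made with Cell Ranger 2.2.0 on GRCm38 (mm10), per the submitters' processing notes; the annotation release and settings are not given in the sources used here. The counts were used as deposited, with totals of 21650747 UMIs on chow, 21471782 after 3 days and 16538895 after 10 days. The limits on UMIs, genes and mitochondrial share were set here. The members and gene lists were chosen with earlier results of these data known. No doublet caller was run; doublets were limited by the Kupffer gene limit, and 2 kinds of marker-based removal were alternatives. Levels are CPM of summed T cell UMIs. Shares have 95% Clopper-Pearson intervals, levels exact Poisson intervals, and ratios exact conditional binomial intervals, all for counting error only. A share of 0 allows up to 3 counts of the total.

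T cells, NK cells and Kupffer cells were compared by edgeR 4.0.16 (quasi-likelihood, TMM, Benjamini-Hochberg) on 9 sums of 3 mice, with the mouse as a block because the classes of a mouse came from 1 library. DESeq2 1.42.0 in R 4.3.3 was an alternative. Clusters used scanpy 1.11.5 with 1000 variable genes, 15 principal components, 15 neighbours and a Leiden resolution of 0.8. The ratio intervals and the edgeR script were tested on simulated data.

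Genes named between diets were the 10 highest and 10 lowest ratios to chow, and 5 each for 10 days over 3 days. They needed 100 CPM in 1 library, a ratio interval without 1, a UMI in 5 barcodes of 1 library, and a T cell level at least 2 times that of Kupffer cells. Genes named against NK cells were the 10 highest and 10 lowest called ones with 1 direction in all 3 mice. Members of the lists could also be named, and the text gives a choice of these. Results for 3 genes are not reported here.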

Additional observations from a re-analysis of the deposited data

How the results depend on the processing

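Of 1132 values recomputed under alternatives, 1024 were counted as kept, 63 moved, 40 lost a call against NK cells and 5 reversed. For a gene against NK cells, kept meant the same direction with a call. Counts and shares have no direction, and a kept one could still differ from its main value within a set limit. All 108 subset shares and all 66 list medians that were rerun were kept, although the Cd4 share on chow at 1000 UMIs was 4.07% with another random draw, against 1.63%. The T cell share was 9.40% (chow), 4.32% (3 days) and 22.5% (10 days) with at most 5% mitochondrial UMIs, 2.02%, 1.26% and 3.45% without doublet-like barcodes, and 4.08% after 10 days at 1000 UMIs. The cause was not tested. Removing doublet-like barcodes took 67, 34 and 45 T cells, and 17, 8 and 11 when Ighm, Bst2 and Xbp1 were not counted.

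The counts past 2-fold depended on several settings, given here where they moved. Scaling without mitochondrial and ribosomal protein genes gave 50 higher and 61 lower with 3 days over chow. It gave 46 higher with 10 days over chow, and 52 higher and 70 lower with 10 days over 3 days. With 5 CPM added there were 37 higher (3 days over chow), 29 higher and 46 lower (10 days over chow), and 29 higher and 58 lower (10 days over 3 days). Without a filter the counts were 54 higher and 121 lower, 50 higher and 86 lower, and 74 higher and 105 lower in the same order. Without doublet-like barcodes they were 52 higher, 35 higher and 61 lower. In an alternative chosen after seeing the data, which did not count Ighm, Bst2 and Xbp1, they were 15 lower (3 days over chow), 12 lower (10 days over chow) and 8 higher (10 days over 3 days). Another such alternative, without barcodes of over 100 immunoglobulin or hepatocyte UMIs, gave 18 lower with 10 days over chow. Means over barcodes gave 21 lower with 3 days over chow and 8 higher with 10 days over 3 days. Without barcodes over 3 times the median UMIs there were 20 lower and 8 higher in those comparisons. For 10 days over 3 days, 23 were higher with Kupffer UMIs under 0.5%, 26 with at most 5% mitochondrial UMIs, and 9 without each gene's top barcode.

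Reversed log2 ratios were Klrc2 at -0.37 and Sugt1 at 0.0746 (3 days over chow) without doublet-like barcodes, and Hist1h2ap (10 days over chow) at 1.01 in that setting, 0.59 in its added form and 0.15 without barcodes over 3 times the median UMIs. Against NK cells, DESeq2 called 88 higher and 15 lower, no TMM scaling 19 and 49, and the T and NK sums alone 30 higher. Leaving out 1 mouse gave 109 to 184 higher and 16 to 26 lower. Without the replicate block that pairs the classes of a mouse, 264 were higher and 24 lower. Against Kupffer cells DESeq2 called 923 higher. A Leiden resolution of 0.5 gave 6 clusters. With 21 NK barcodes, a gene at 0 in NK cells could still stand at up to 54.0 CPM.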
